A study of Mus musculus with 24 samples.

Results

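The genes described here were 46 genes of the cell cycle and of DNA replication, chosen by symbol, and all 46 were found among the 17696 genes of the count table. They were read as 8 genes of replication licensing, 4 of DNA synthesis, 8 G1 cyclins and kinases, 4 cyclins and kinases that act from S phase to mitosis, 15 genes of mitosis, 4 transcription factors and 3 inhibitors of cyclin-dependent kinases. RNA was sequenced from 24 libraries of MIN6 cells, a mouse β cell line, in 6 groups of 4. Scr cells carried a lentiviral vector with a scrambled sequence, ZIP cells a vector that inhibits miR-146a-5p, and OE cells a vector that overexpresses miR-146a-5p. Each line was left untreated or was cultured for 24 h with a mixture of the cytokines TNFα (10 ng/ml), IFNγ (100 ng/ml) and IL-1β (5 ng/ml) (Scr+Cy, ZIP+Cy and OE+Cy). All 3 lines had been selected for 7 days in 1 µg/ml puromycin and expanded from single picked clones, so a difference between lines and a difference between clones cannot be told apart. The OE vector also had another backbone than the vector shared by Scr and ZIP.

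A cell that enters the cycle first loads the MCM helicase onto its replication origins with the help of Cdc6 and Cdt1, a step called licensing. D-type cyclins with Cdk4 or Cdk6, and then E-type cyclins with Cdk2, inactivate the RB proteins and free E2F factors, which switch on licensing genes, nucleotide synthesis genes and cyclin E itself. A second wave of genes, driven by the MuvB complex with Mybl2 and Foxm1, supplies cyclin B, the mitotic kinases and the kinetochore proteins. Cdkn1a, a classic p53 target, its relative Cdkn1b and the inhibitor Cdkn2c hold the kinases back. Adult β cells divide rarely, while MIN6 cells come from an insulinoma of mice that carried the SV40 T antigen, a viral protein that binds both RB and p53.

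Levels are given as CPM (gene counts scaled by TMM to a common library size), as mean ± SD with n = 4 libraries. A gene was called where edgeR's quasi-likelihood test gave a change of at least 1.5-fold at an unadjusted p under 0.05, the thresholds the study used, and it is stated separately how many genes passed a Benjamini-Hochberg adjusted p under 0.05 with no limit on fold. "Rose" and "fell" mark genes that were called or passed the adjusted p, and log2 fold changes carry their SE. The labels do not say whether the 4 libraries of a group were separate cultures, so p-values measure the spread between these libraries. RNA came from whole cultures, in which fewer cycling cells and less RNA of these genes per cell cannot be told apart.

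The libraries held 26657792 to 37168232 assigned reads (median 30701023). The β cell label held: Ins2 ran from 8500 to 19900 CPM and Pdx1 from 307 to 988 CPM, and all 9 β cell markers were detected in every group. The lowest was Slc2a2, at 9.43 to 171 CPM. The 9 summed to 23000 to 30300 CPM in Scr, 32000 to 34600 in ZIP and 46900 to 50600 in OE. Against Scr, 3 of the 9 were called higher and 0 lower in ZIP cells (7.97% and 6.91% of all genes). In OE cells 4 were called higher and 1 lower, Nkx6-1 (11.3% and 14.4% of all genes). Other islet endocrine markers (4 genes) summed to 246 to 369 CPM in Scr, 101 to 305 in ZIP and 46 to 56 in OE. With cytokines the sums were 134 to 190 CPM in Scr+Cy, 78.4 to 218 in ZIP+Cy and 9.09 to 34.7 in OE+Cy. Against Scr, OE cells had Gcg called lower and Sst and Ppy called higher. The part of these differences in the results was not tested. Markers of fibroblasts and Schwann cells were raised in 3 libraries, all of them replicate 1 of their group. Summed over 6 fibroblast markers, Scr replicate 1 was at 18.91 CPM, ZIP replicate 1 at 54.04 CPM and Scr+Cy replicate 1 at 58.66 CPM, against 0.537 to 7.95 CPM in the other 21 libraries, and 4 Schwann cell markers summed to 17.18, 37.14 and 70.48 CPM there against 1.65 to 8.98 CPM. Counts below were repeated without these 3 libraries. Cytokine treatment was visible in each line through Irf1, Nfkbia and Gbp2, each of which rose in all 3 lines.

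**Figure D1:**
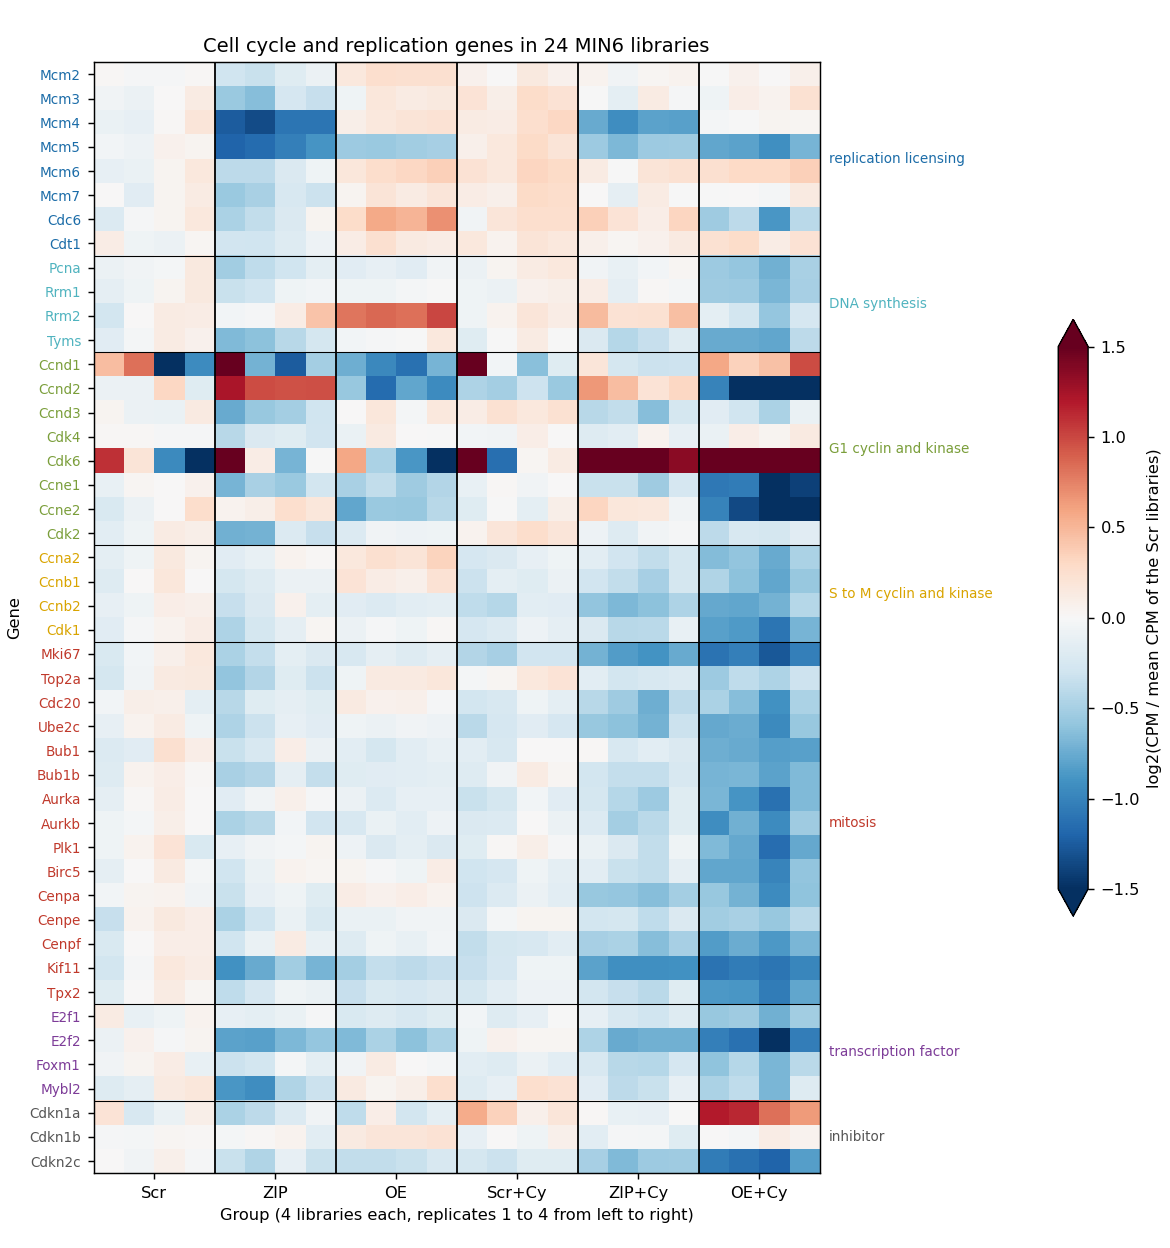
Level of each of the 46 genes (rows, grouped and coloured by role) in each of the 24 libraries (columns, 4 per group), as the log2 ratio to the mean of the Scr libraries, with colours capped at 1.5 in either direction. Mcm4 and Mcm5 were low in all 8 ZIP and ZIP+Cy libraries, Rrm2 was high in the 4 OE libraries, and most rows turned blue in the 4 OE+Cy libraries, where Cdkn1a turned red.

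The first question was whether the lines differed before any cytokine was added. In ZIP cells 5 of the 46 genes were called lower than in Scr cells and 1 higher, while over all genes 6.91% were called lower and 7.97% higher. The lower genes were Mcm4 and Mcm5, which are MCM helicase subunits, Kif11, the motor that pushes the spindle poles apart, and the factors E2f2 and Mybl2. The higher gene was Ccnd2, cyclin D2, which pairs with Cdk4 and Cdk6 in G1. With the adjusted p alone, 24 genes were lower and 1 was higher, against 14.8% and 13.5% of all genes. Without the 3 libraries 21 genes in place of 25 passed the adjusted p, and Cdt1 (adjusted p = 0.112 in edgeR), Ube2c (0.056), Aurkb (0.0792) and Foxm1 (0.162) did not. The median log2 fold change of the 46 genes was -0.23, against 0.00 over all genes.

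The replication licensing genes had a median of -0.33 in ZIP against Scr. At the adjusted p, 7 of its 8 genes fell in ZIP cells, with Cdc6 the exception at -0.24 ± 0.11, adjusted p = 0.119. Cdc6 passed in a fit with a replicate block (edgeR, adjusted p = 0.0405), and without the 3 libraries 6 of the 8 passed. Mcm4 (chr16:15623897-15637401, - strand of mm10) was at 198, 196, 216 and 241 CPM (Scr), 89.8, 83.7, 99.9 and 99.5 (ZIP), 226, 237, 244 and 247 (OE), 233, 229.5, 254 and 264 (Scr+Cy), 126, 111, 122 and 121 (ZIP+Cy) and 209, 211, 219 and 217 (OE+Cy). Its ZIP and ZIP+Cy values did not overlap those of any other group. The log2 fold change of ZIP against Scr was -1.19 ± 0.068, adjusted p = 1.92e-12, and that of ZIP+Cy against Scr+Cy was -1.03 ± 0.067, adjusted p = 2.3e-11. Mcm5 (chr8:75109509-75128440, + strand) was at 401, 389.5, 429 and 424 CPM (Scr), 178, 185, 203 and 222 (ZIP), 282, 279.6, 286 and 291 (OE), 434, 457, 502 and 469.8 (Scr+Cy), 283, 257, 282 and 285 (ZIP+Cy) and 239.7, 236, 217 and 253 (OE+Cy). It was lower than in Scr in both other lines, at -1.06 ± 0.064, adjusted p = 5.24e-12 in ZIP and -0.53 ± 0.063, adjusted p = 1.76e-07 in OE cells. Mcm2, another subunit of the helicase, was at 318, 309.6, 311 and 317 CPM (Scr), 255, 249.7, 277 and 295 (ZIP), 352, 373, 370.4 and 372 (OE), 328, 316, 347 and 329 (Scr+Cy), 326, 303, 320.1 and 325 (ZIP+Cy) and 313, 329, 315 and 331 (OE+Cy). Its difference from Scr had opposite signs in ZIP cells (-0.22 ± 0.049, adjusted p = 0.00117) and OE cells (0.22 ± 0.049, adjusted p = 0.000471), and both were well under 1.5-fold.

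Genes near a member on its chromosome were read as a local background, as medians over genes within 5 Mb with a mean of at least 10 CPM. Neighbours were read only around the 46 genes, and not around genes of the other lists. Around Mcm4 the 75 neighbours had a median of -0.22 in ZIP against Scr, and around Mcm5 the 80 neighbours had -0.17, beside the values of Mcm4 and Mcm5 given above. In OE against Scr the Mcm5 neighbours had -0.09, beside -0.53 for Mcm5 itself. For Kif11, the 46 neighbours on chromosome 19 had a median of -0.39 in ZIP and -0.44 in OE against Scr, beside -0.71 and -0.40 for Kif11 itself. The part of the neighbourhood in the Mcm4, Mcm5 and Kif11 differences was not tested.

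DNA synthesis genes differed less in ZIP cells. Pcna, the sliding clamp of the replication fork, was at 301, 309, 314 and 353 CPM (Scr), 222, 246, 260.4 and 289.6 (ZIP), 283, 292, 284 and 309 (OE), 301, 329.8, 347 and 356 (Scr+Cy), 308, 295, 309.9 and 326 (ZIP+Cy) and 219, 213, 194 and 228 (OE+Cy). It fell in ZIP cells (-0.33 ± 0.072, adjusted p = 0.00106), as did Tyms, the thymidylate synthase (-0.48 ± 0.095, adjusted p = 0.000366). The ribonucleotide reductase subunits Rrm1 and Rrm2 stood at -0.18 and 0.13 and did not pass, although Rrm1 did with the replicate block (edgeR, adjusted p = 0.0279). None of the 4 S to M cyclins and kinases passed the adjusted p in ZIP cells, and 7 of 15 mitosis genes did, all lower, with a median of -0.23 over the 15. With the replicate block Cdk1 (edgeR, adjusted p = 0.0441) and Tpx2 (0.0192) passed too, and without the 3 libraries 5 of the 15 mitosis genes did.

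In OE cells 1 of the 46 genes was called higher than in Scr, Rrm2, and 1 lower, Ccnd2, against 11.3% and 14.4% of all genes. Without the 3 libraries named above, or without Scr replicate 1 alone, E2f2 and Ccne2 were also called lower, which made 4 genes. Rrm2, the regulated subunit of ribonucleotide reductase, was at 78, 94.7, 103 and 102 CPM (Scr), 91.7, 93.3, 102 and 127 (ZIP), 164, 171, 168 and 189.9 (OE), 90.6, 97.6, 107 and 102 (Scr+Cy), 131, 109.9, 110.3 and 129 (ZIP+Cy) and 85.1, 78, 63.1 and 79.2 (OE+Cy). The 4 OE values lay above those of all other groups, and the fold change against Scr was 0.87 ± 0.10, adjusted p = 1.59e-07. On the adjusted p alone 8 genes were higher and 9 lower, against 24.5% and 25.6% of all genes. Of the 8 higher genes 5 were licensing genes, namely Mcm2, Mcm4, Mcm6, Cdc6 and Cdt1, and Cdc6 moved furthest among them (0.52 ± 0.11, adjusted p = 0.000422). The lower genes took in Ccne1 and Ccne2, the E-type cyclins (-0.46 ± 0.093, adjusted p = 0.000224 and -0.58 ± 0.11, adjusted p = 0.000138), E2f1 and E2f2, and Cdkn2c.

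**Figure D2:**
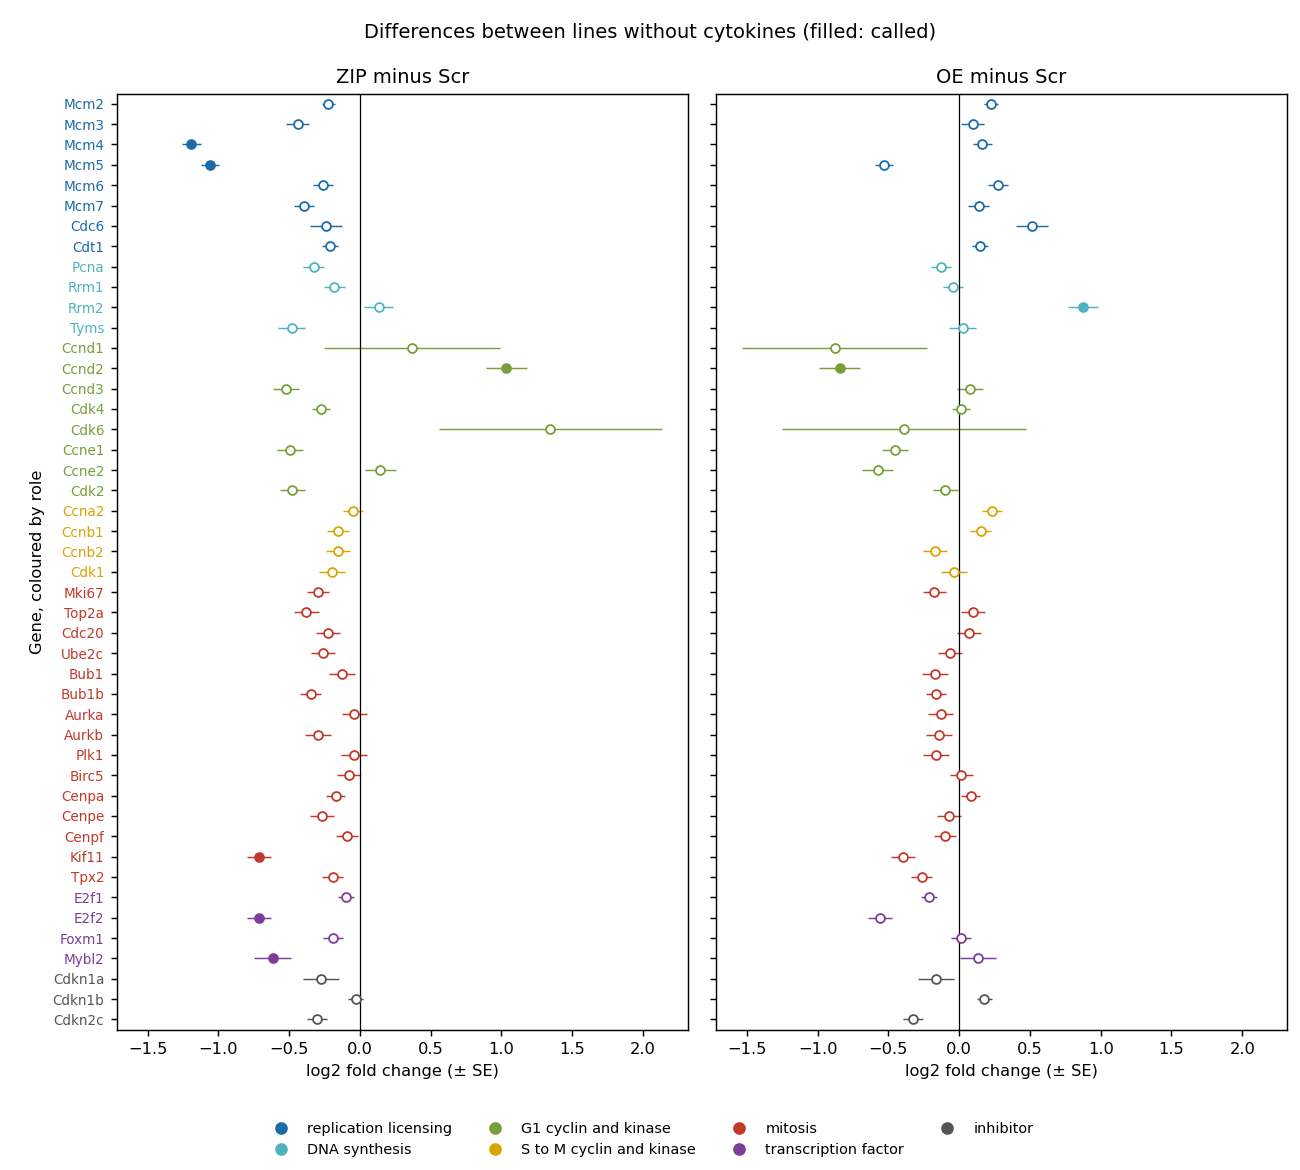
Log2 fold change of each gene, with its SE as a bar, for ZIP against Scr (left) and OE against Scr (right), both without cytokines. Filled points passed the 1.5-fold and p thresholds. Mcm4 at -1.19 and Mcm5 at -1.06 lie furthest left in ZIP cells, and Ccnd2 lies on opposite sides in the 2 panels, at 1.03 and -0.85.

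Ccnd2, cyclin D2, was called in both lines with opposite signs. It was at 1358, 1352, 1782 and 1265 CPM (Scr), 3363, 2833, 2781 and 2813 (ZIP), 969, 645, 841 and 749 (OE), 1048, 1009.8, 1157 and 980.2 (Scr+Cy), 2259, 1980.5, 1662 and 1791 (ZIP+Cy) and 720.0, 473, 422 and 451 (OE+Cy). The 4 ZIP values lay above, and the 4 OE values below, every Scr value. The fold change was 1.03 ± 0.15, adjusted p = 5.45e-06 in ZIP and -0.85 ± 0.15, adjusted p = 3.11e-05 in OE cells. With cytokines the same order was seen, at 0.87 ± 0.15, adjusted p = 5.13e-05 and -1.02 ± 0.15, adjusted p = 2.41e-06. Within OE cells Ccnd2 was called lower with cytokines (-0.63 ± 0.15, adjusted p = 0.00091), although 1 OE+Cy library lay above 1 OE library, and the call was lost without OE replicate 1 (-0.53) or OE+Cy replicate 3 (-0.56). An opposite-strand gene, 9330179D12Rik, shares 1660 bases with Ccnd2 and averaged 0.0866 CPM.

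Because the ZIP and OE vectors act on miR-146a-5p, the 3′ UTRs of the 46 genes were searched for its seed match. By qRT-PCR in untreated cells, the paper reports more miR-146a-5p in OE than in Scr cells and no change in ZIP cells. With cytokines the paper reports a rise of miR-146a-5p in each line over its own untreated cells. That rise was by far the largest in Scr cells and the smallest in ZIP cells. A microRNA pairs with its targets mainly through the seed, bases 2 to 8 from its 5′ end. The mature sequence (RefSeq, GRCm38.p6, chr11:43374435-43374456, - strand) is shown with the seed in capitals, and below it the match in Ccnd2 with 11 bases on either side, with the 7 bases that pair with the seed in capitals.
mmu-miR-146a-5p: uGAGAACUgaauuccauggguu
Ccnd2, chr6:127128461-127128467, - strand: gtcgagagacgAGTTCTCtgtactggaaa
The Ccnd2 match starts at base 1868 after the stop codon in a 3′ UTR of 5173 bases (GENCODE transcripts, longest 3′ UTR per gene). A match was held by 5 of the 46 genes (10.9%) and by 12.1% of 15437 genes of the table, a share close to the background. The other 4 were Ccna2, Cdk1, Ube2c and Birc5. Their log2 fold changes ran from -0.07 to 0.23 in OE against Scr and from -0.26 to -0.05 in ZIP against Scr. The Ube2c match (chr2:164778709-164778715) lies in a GENCODE transcript, beyond the end of the gene as counted (chr2:164769929-164772903). A match is a stretch of letters and not a measured site, miR-146a-5p was not measured in these libraries, and the search was chosen after the Ccnd2 values had been seen.

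The other G1 genes fell into those with ample reads and those near the bottom of the range. Ccnd3, cyclin D3, was at 41.3, 37.6, 37.2 and 43.9 CPM (Scr), 23.8, 27, 28.1 and 32.5 (ZIP), 40.0, 44.9, 39.2 and 44.5 (OE), 43.1, 47, 44.6 and 46.7 (Scr+Cy), 30.0, 31, 25.7 and 33.3 (ZIP+Cy) and 35.5, 32.6, 28.7 and 37.2 (OE+Cy). It fell in ZIP cells (-0.52 ± 0.092, adjusted p = 9.9e-05) and was called lower in ZIP+Cy against Scr+Cy (-0.60 ± 0.091, adjusted p = 1.8e-05), close to the 1.5-fold limit, a call that was lost with DESeq2 (-0.58), with its size factors and without any 1 of Scr+Cy replicates 2 and 4 or ZIP+Cy replicates 1 and 3. It shares 358 bases with Bysl on the other strand. Cdk4, the partner of the D-type cyclins, was at 199, 199.7, 196 and 196 CPM (Scr), 148, 169.7, 175 and 162 (ZIP), 184, 217, 198 and 197 (OE), 192, 191, 212 and 198 (Scr+Cy), 172, 177, 204 and 181 (ZIP+Cy) and 184, 211, 203 and 217 (OE+Cy). It passed the adjusted p in ZIP against Scr (-0.27 ± 0.064, adjusted p = 0.00191) and in none of the 3 cytokine responses, except in ZIP cells with the replicate block (adjusted p = 0.0163). Ccne1, cyclin E1, was at 65.2, 71.9, 70.9 and 73.4 CPM (Scr), 43.2, 50.3, 48 and 57.9 (ZIP), 50.3, 54.4, 48.7 and 51.7 (OE), 65.2, 71.1, 67.6 and 70.6 (Scr+Cy), 56, 55.7, 48.7 and 59 (ZIP+Cy) and 33.4, 34.1, 23.5 and 26.7 (OE+Cy). Ccne2, cyclin E2, was at 67.7, 74.5, 79.1 and 94.7 CPM (Scr), 82.1, 83.7, 94.4 and 89 (ZIP), 46, 53.6, 53.2 and 59 (OE), 69.4, 78.4, 71.1 and 83.8 (Scr+Cy), 98.5, 89, 88.4 and 76.2 (ZIP+Cy) and 39.4, 30.9, 27.9 and 25.8 (OE+Cy), and it overlaps Ints8 over 5622 bases on the other strand. Both E-type cyclins were lowest in OE+Cy cells, where all 4 libraries lay below those of every other group.

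Ccnd1 and Cdk6 were close to the limit of detection and differed within groups. Ccnd1, cyclin D1, was at 1.32, 1.7, 0.313 and 0.496 CPM (Scr), 3.37, 0.584, 0.403 and 0.672 (ZIP), 0.574, 0.49, 0.441 and 0.589 (OE), 4.83, 0.93, 0.618 and 0.841 (Scr+Cy), 1.08, 0.795, 0.767 and 0.774 (ZIP+Cy) and 1.42, 1.22, 1.29 and 1.88 (OE+Cy). Cdk6 was at 0.647, 0.345, 0.156 and 0.0619 CPM (Scr), 2.38, 0.328, 0.186 and 0.302 (ZIP), 0.453, 0.218, 0.166 and 0.0982 (OE), 2.06, 0.138, 0.309 and 0.33 (Scr+Cy), 0.908, 0.899, 1.76 and 0.774 (ZIP+Cy) and 2.26, 1.69, 1.96 and 1.06 (OE+Cy), on 2 to 67 reads a library. The highest Ccnd1 and Cdk6 values of ZIP and of Scr+Cy were those of replicate 1, the libraries with raised fibroblast and Schwann cell markers, and the part of those cells in the values was not tested. The OE and OE+Cy libraries, in which the fibroblast sum was 0.537 to 4.11 CPM, gave values for Cdk6 that did not overlap: it rose with cytokines by 2.87 ± 0.79, adjusted p = 0.00461. Ccnd1 was called higher there at 1.47 ± 0.65, adjusted p = 0.0683, a call that missed the adjusted p, passed it with the replicate block (0.0144) or without the 3 libraries (0.00147), and was lost without OE replicate 2, without OE replicate 3 or without OE+Cy replicate 4. Without the 3 libraries Cdk6 was also called higher in ZIP+Cy against ZIP, at a log2 fold change of 1.98 against 0.45 with all libraries, and in ZIP+Cy against Scr+Cy, at 2.03 against 0.59. Also without them, both genes were called higher in OE+Cy against Scr+Cy, Cdk6 at 2.72 against 1.28 and Ccnd1 at 0.87 against -0.32 with all libraries. Ccnd1 also shares 818 bases with LTO1 on the other strand, which had 22.5 CPM on average.

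Cytokine treatment was then compared within each line. In Scr cells none of the 46 genes was called by edgeR in either direction, against 7.88% of all genes called higher and 2.67% lower. DESeq2 also called 0, and 21 genes had an unadjusted p under 0.05 in edgeR. Without Scr replicate 1, Cdk6 alone was called higher. At an adjusted p under 0.05 3 genes were higher, Mcm4, Mcm5 and Mcm6, and 6 were lower, Ccnd2, Ccnb2, Mki67, Ube2c, Cenpf and Cdkn2c, against 10.5% and 7.33% of all genes. Without the 3 libraries with raised markers 3 genes in place of 9 passed the adjusted p, Ccnb2, Mki67 and Cenpf, and 3 to 5 did without any 1 of Scr replicates 2 and 3 or Scr+Cy replicates 1, 2 and 4. All 9 changes were small, the furthest being Ccnd2 at -0.46 ± 0.14, adjusted p = 0.0295 and Mki67 at -0.37 ± 0.08, adjusted p = 0.00142.

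In ZIP cells the genes that passed with cytokines were mostly changed by small amounts. One gene, Ccnd2, was called lower (-0.62 ± 0.14, adjusted p = 0.0024) and none higher, against 5.21% and 7.28% of all genes, and that call was lost without the 3 libraries (-0.55), or without ZIP replicate 1 (-0.55), ZIP+Cy replicate 3 (-0.55) or ZIP+Cy replicate 4 (-0.58). By the adjusted p 11 genes were higher and 10 lower, against 13.6% and 12.8% of all genes. All 8 licensing genes were among the higher, at 0.24 to 0.49 (median 0.40), with Pcna, Cdk2 and Mybl2. Of the 15 mitosis genes 6 were lower, 9 did not pass, and the median was -0.17. Licensing and mitosis genes were not tested against each other. Mcm3, for example, was at 161 ± 20.5 CPM in ZIP and 217 ± 16.9 in ZIP+Cy, beside 218 ± 13.7 in Scr and 250 ± 13.2 in Scr+Cy. Of the 8, 2 passed the adjusted p in ZIP+Cy against Scr+Cy, Mcm4 and Mcm5, both lower.

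In OE cells 23 of the 46 genes were called lower with cytokines and 3 higher. Over all genes 8.02% were called lower and 13% higher. The 23 lower genes were Cdc6, Rrm2, Tyms, Ccnd2, Ccne1, Ccne2, Ccna2, Ccnb1, Cdk1, E2f2, Cdkn2c and 12 of the 15 mitosis genes. The 3 higher genes were Cdkn1a, Cdk6 and Ccnd1. By the adjusted p 36 were lower and 2 higher, against 21.5% and 23% of all genes, and the median of the 46 was -0.58 against 0.02 over all genes. Leaving out single libraries gave 23 to 28 called genes. Without the 3 libraries 26 genes were called, as with them. None of the 3 is an OE or OE+Cy library, so that refit could change this comparison only through the shared scaling and spread. In the 8 libraries compared, the fibroblast markers summed to 0.537 to 4.11 CPM and the Schwann cell markers to 4.5 to 8.98 CPM. The sum of the 9 β cell markers was 46900 to 50600 CPM in OE and 29600 to 38600 CPM in OE+Cy. Of the 9, 5 were called lower. By the adjusted p 7 were lower and 1 was higher, Neurod1 (0.23), while Iapp stood at -0.01. The part of these markers in the result was not tested.

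**Figure D3:**
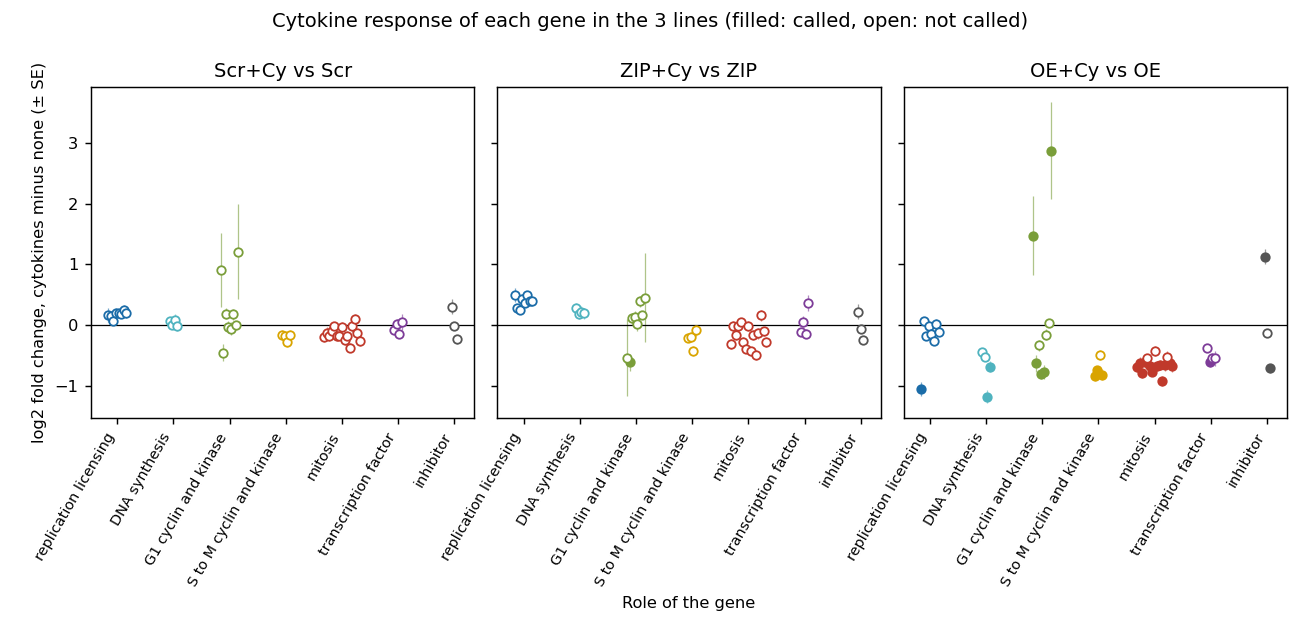
Log2 fold change with cytokines of each gene, with its SE as a bar, by role and line. Filled points passed the 1.5-fold and p thresholds. In Scr cells no point is filled, in ZIP cells only Ccnd2 is, and in OE cells the 15 mitosis genes lie between -0.92 and -0.42 while 7 of the 8 licensing genes lie between -0.27 and 0.06.

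The fall in OE cells was uneven across roles. Licensing genes other than Cdc6 moved little. Mcm4 was at -0.15 and Mcm6 at 0.02, neither past the adjusted p (Mcm4 was with the replicate block, at 0.0103), and Mcm2 and Mcm5 fell by 0.19 and 0.27 on the log2 scale. Cdc6, which helps load the MCM helicase, was at 47.1, 53.6, 56.1 and 60.4 CPM (Scr), 39.2, 42, 46.9 and 55.7 (ZIP), 65.5, 80.7, 77.5 and 87.1 (OE), 52.3, 61.5, 64.6 and 64.5 (Scr+Cy), 69.6, 62.8, 58.2 and 67.6 (ZIP+Cy) and 37.4, 41.3, 29.7 and 40.9 (OE+Cy). It fell by 1.06 on the log2 scale (adjusted p = 4.92e-08), from the highest group mean to the lowest. DNA synthesis genes all passed the adjusted p. Rrm2 moved furthest (-1.18 ± 0.10, adjusted p = 2.06e-09), again from the highest group to the lowest, and Pcna least (-0.45 ± 0.072, adjusted p = 1.38e-05).

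The 4 cyclins and kinases that run from S phase to mitosis were all lower in OE+Cy than in OE cells by the adjusted p, and 3 were called. Cdk1, the kinase that triggers mitosis, was at 154, 171, 179 and 185 CPM (Scr), 125, 143, 157 and 176 (ZIP), 163, 170.4, 164 and 174 (OE), 144, 149, 164 and 156 (Scr+Cy), 148, 129, 129.9 and 159 (ZIP+Cy) and 98.2, 95.8, 80.7 and 106 (OE+Cy). Its OE+Cy values lay below those of every other group, and the change was -0.82 ± 0.092, adjusted p = 9.31e-08. Ccnb1, its cyclin B1 partner, was at 94.2, 108, 122 and 108 CPM (Scr), 90.0, 94.3, 102 and 102 (ZIP), 124, 117, 114 and 125 (OE), 86.1, 97.5, 95.2 and 102 (Scr+Cy), 88.7, 83.8, 76.7 and 90.1 (ZIP+Cy) and 79.3, 70.7, 63 and 73 (OE+Cy), with a change of -0.75 ± 0.076, adjusted p = 2.01e-08. Ccna2, cyclin A2, fell by 0.85 (adjusted p = 6.95e-10), although it shares 863 bases with Exosc9 on the other strand. Ccnb2 stood at -0.49 ± 0.085, adjusted p = 3.76e-05 and was not called.

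Mitosis genes fell together in OE cells, 12 of 15 called and all 15 past the adjusted p, with a median of -0.66. Mki67, which coats mitotic chromosomes and is the usual marker of proliferating cells, was at 1794, 2043, 2208 and 2351 CPM (Scr), 1511, 1633, 1889.9 and 1806 (ZIP), 1783, 1907, 1841 and 1905 (OE), 1546, 1491, 1726 and 1718 (Scr+Cy), 1281, 1179, 1127 and 1239.7 (ZIP+Cy) and 977, 1035, 873 and 1035 (OE+Cy). Every OE+Cy value lay below all values of the other 5 groups, and the change was -0.92 ± 0.08, adjusted p = 1.49e-09. Top2a, the topoisomerase that untangles sister chromatids, was at 922, 1064, 1219 and 1219 CPM (Scr), 731, 818, 974 and 881 (ZIP), 1061, 1209.7, 1216 and 1246 (OE), 1086, 1129.9, 1235 and 1272 (Scr+Cy), 991, 916, 938 and 956 (ZIP+Cy) and 756, 848, 799 and 893 (OE+Cy). It fell by 0.52 (adjusted p = 2.93e-05), short of 1.5-fold, as did Bub1b and Cenpe.

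Plk1, a kinase of mitotic entry, was at 95.9, 104, 116 and 86 CPM (Scr), 92.2, 96.9, 98.4 and 103 (ZIP), 95.7, 86.5, 90.6 and 86.9 (OE), 88.7, 102, 107 and 99.5 (Scr+Cy), 94, 86.4, 77.6 and 96.5 (ZIP+Cy) and 63.6, 59, 45.7 and 59 (OE+Cy). It changed in OE cells by -0.66 ± 0.093, adjusted p = 2.45e-06, and in ZIP cells it stood at -0.14 and in Scr cells at -0.02, neither past the adjusted p. The Plk1 call was lost without OE+Cy replicate 3 (-0.58). Aurkb, the kinase of the chromosomal passenger complex, was at 66.4, 67.8, 73.4 and 69.5 CPM (Scr), 49.8, 52.1, 67.4 and 56.6 (ZIP), 58.6, 64.6, 62 and 65.8 (OE), 59.5, 60.1, 69.5 and 65.1 (Scr+Cy), 60.1, 48.7, 52.4 and 61.1 (ZIP+Cy) and 36.4, 42.1, 36.2 and 47.8 (OE+Cy). It changed in OE cells by -0.63 ± 0.094, adjusted p = 6.09e-06, and Birc5, the survivin subunit of the same complex, by -0.79 ± 0.085, adjusted p = 4.78e-08. The Aurkb call was lost without OE+Cy replicate 1 (-0.58). Cdc20, the activator of the anaphase-promoting complex, was at 119.6, 131, 129 and 111 CPM (Scr), 92.1, 108, 112 and 108 (ZIP), 135, 129, 129 and 121 (OE), 101, 104, 117 and 111 (Scr+Cy), 91.5, 84.5, 74.1 and 93.1 (ZIP+Cy) and 88, 79, 65.1 and 88 (OE+Cy). It shares 52 bases with Elovl1, and its change in OE cells was -0.68 ± 0.087, adjusted p = 6.43e-07. The centromere histone Cenpa fell in OE by 0.78 and, under 1.5-fold, in ZIP cells by 0.40. The spindle checkpoint kinase Bub1 fell in OE cells by 0.61, the spindle pole kinase Aurka by 0.69, the spindle assembly factor Tpx2 by 0.63, the kinetochore protein Cenpf by 0.68, Kif11 by 0.66 and Ube2c, which works with the anaphase-promoting complex, by 0.68, all called.

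Of the 4 transcription factors, E2f1 and E2f2 act early and Foxm1 and Mybl2 late. E2f1 was at 108, 92, 94.7 and 103 CPM (Scr), 91.1, 89.9, 92.6 and 98.1 (ZIP), 85, 86.7, 84 and 87.7 (OE), 96.6, 86.7, 91.5 and 98.6 (Scr+Cy), 91.6, 84.2, 80.6 and 87.1 (ZIP+Cy) and 66.8, 68.4, 60.2 and 69.3 (OE+Cy). E2f2 was at 63.5, 70.6, 66.9 and 69.4 CPM (Scr), 38.8, 38.4, 42.4 and 45.4 (ZIP), 42.6, 48.6, 44.3 and 48.5 (OE), 64.6, 70.5, 68.9 and 69 (Scr+Cy), 49.2, 40.1, 41 and 41 (ZIP+Cy) and 33.3, 31.2, 23.6 and 33 (OE+Cy). Both fell with cytokines in OE cells, E2f2 past 1.5-fold (-0.60 ± 0.087, adjusted p = 3.9e-06) and E2f1 not (-0.38 ± 0.057, adjusted p = 8.49e-06), and neither passed the adjusted p in Scr or ZIP cells. The E2f2 call was lost without OE replicate 2, OE replicate 4 or OE+Cy replicate 3, when the fall was 0.57, 0.58 or 0.51 on the log2 scale. Without cytokines all Scr values of E2f2 lay above all ZIP and OE values (-0.71 ± 0.086, adjusted p = 5.41e-07 and -0.56 ± 0.085, adjusted p = 6.73e-06). Foxm1, the mitotic factor, was at 162, 172, 181 and 156 CPM (Scr), 134, 138, 165 and 151 (ZIP), 162, 183, 169 and 164 (OE), 150.0, 147, 158 and 150.1 (Scr+Cy), 142, 125, 124 and 141 (ZIP+Cy) and 111, 125, 105 and 127 (OE+Cy). It fell in OE cells by 0.54 (adjusted p = 1.07e-06) and overlaps Tex52 on the same strand over 377 bases. Mybl2 fell in OE cells by 0.55 (adjusted p = 0.00119). Its lower call in ZIP against Scr (-0.62 ± 0.13, adjusted p = 0.000853) was lost without any 1 of Scr replicates 3 and 4 or ZIP replicates 1 and 2, at -0.53 to -0.56.

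The 3 inhibitors did not move together. Cdkn1a, which encodes p21, was at 108, 79.2, 87.7 and 100.0 CPM (Scr), 67.5, 71.6, 81.2 and 90.1 (ZIP), 72.2, 100.4, 77.6 and 84.7 (OE), 137, 119, 98.9 and 106 (Scr+Cy), 95.2, 86.8, 85.9 and 93.6 (ZIP+Cy) and 214, 206, 166 and 146.4 (OE+Cy). The OE+Cy values lay above those of all other groups, and the rise in OE cells was 1.13 ± 0.13, adjusted p = 1.05e-07. In Scr and in ZIP cells the change with cytokines was 0.30 ± 0.13, adjusted p = 0.11 and 0.22 ± 0.13, adjusted p = 0.223. Cdkn1b, which encodes p27, was at 179, 178, 184 and 184 CPM (Scr), 177, 183, 187 and 162 (ZIP), 198, 205, 204 and 211 (OE), 166, 181, 173 and 191 (Scr+Cy), 162, 178, 178 and 159.9 (ZIP+Cy) and 182, 177, 195 and 187 (OE+Cy). It rose in OE against Scr by 0.18 ± 0.053, adjusted p = 0.00748 and fell in OE+Cy against OE by 0.14 on the log2 scale, both small. Cdkn2c, which encodes p18, was at 487, 468, 511 and 480.1 CPM (Scr), 387, 355, 447 and 386 (ZIP), 377, 378, 386 and 413 (OE), 407, 388, 429.9 and 428 (Scr+Cy), 345, 308, 334 and 336 (ZIP+Cy) and 236, 225, 212 and 273 (OE+Cy). It fell with cytokines in all 3 lines, by 0.24, 0.25 and 0.72 in Scr, ZIP and OE cells, and in Scr cells it did not pass without the 3 libraries (edgeR, adjusted p = 0.0866).

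**Figure D4:**
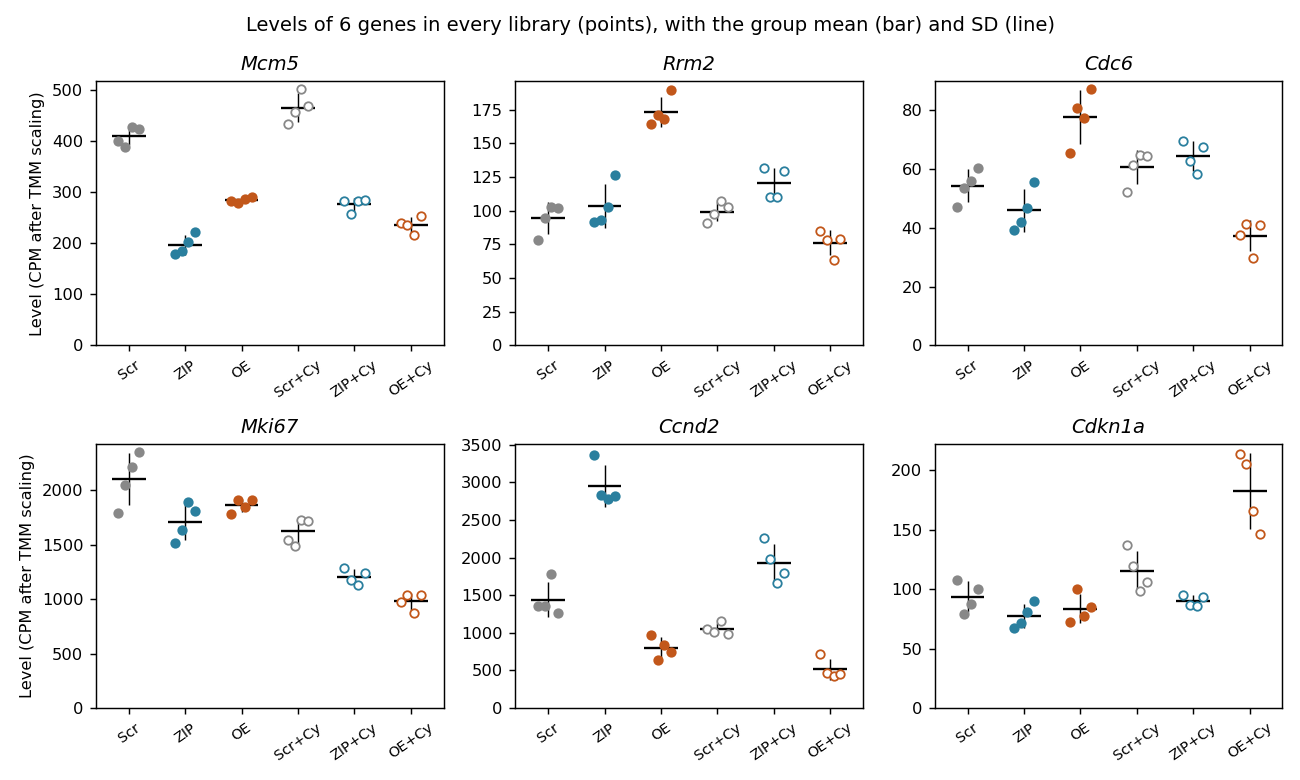
CPM of 6 genes in every library (points, filled without and open with cytokines), with the group mean as a bar and the SD as a line, on axes that start at 0. Rrm2 and Cdc6 are highest in OE and lowest in OE+Cy, Ccnd2 differs between lines with and without cytokines, and Cdkn1a is at 183 ± 32 CPM in OE+Cy against 83.7 ± 12.2 in OE.

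Whether a line responded differently from Scr was tested directly, as the difference of the cytokine responses. For ZIP no gene of the 46 passed an adjusted p under 0.05 in edgeR or DESeq2. At an unadjusted p under 0.05 there were 5 genes in edgeR and 7 in DESeq2, and over all genes 0.0509% passed as higher and 0.00565% as lower. The 8 licensing differences were all above 0, at 0.14 to 0.33, and the smallest p was that of Mcm5 (0.31 ± 0.089, adjusted p = 0.407). For OE, 35 genes responded lower than in Scr and 1 higher, against 10.3% and 9.64% of all genes. Both tests share the Scr and Scr+Cy libraries.

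The 35 genes took in 5 of 8 licensing genes, all 4 of DNA synthesis, Ccnd3, Ccne1 and Ccne2, 3 of the 4 S to M cyclins and kinases, all 15 mitosis genes, all 4 transcription factors and Cdkn2c. Rrm2 (-1.26 ± 0.15, adjusted p = 4.3e-06) and Cdc6 (-1.22 ± 0.16, adjusted p = 1.51e-05) differed most, and the mitosis genes lay between -0.64 and -0.39. The higher gene was Cdkn1a (0.83 ± 0.18, adjusted p = 0.00183). The licensing gene Mcm7 was close to the limit (-0.30 ± 0.10, adjusted p = 0.0432) and did not pass with DESeq2's size factors or in 10 of the 16 refits that left out 1 library. The 10 genes that did not pass were Mcm3, Mcm6, Cdt1, Ccnd1, Ccnd2, Cdk2, Cdk4, Cdk6, Ccnb2 and Cdkn1b. Of these, Cdk6 passed without the 3 libraries (2.43 against 1.67), and Mcm6 and Cdk2 with the replicate block. Cdk2 also passed with DESeq2 and with the groups compared alone. For Ccnd2 the difference was -0.18 ± 0.20. With the 1.5-fold limit and unadjusted p in place of the adjusted p, 14 of the 46 remained, 13 lower and 1 higher.

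**Figure D5:**
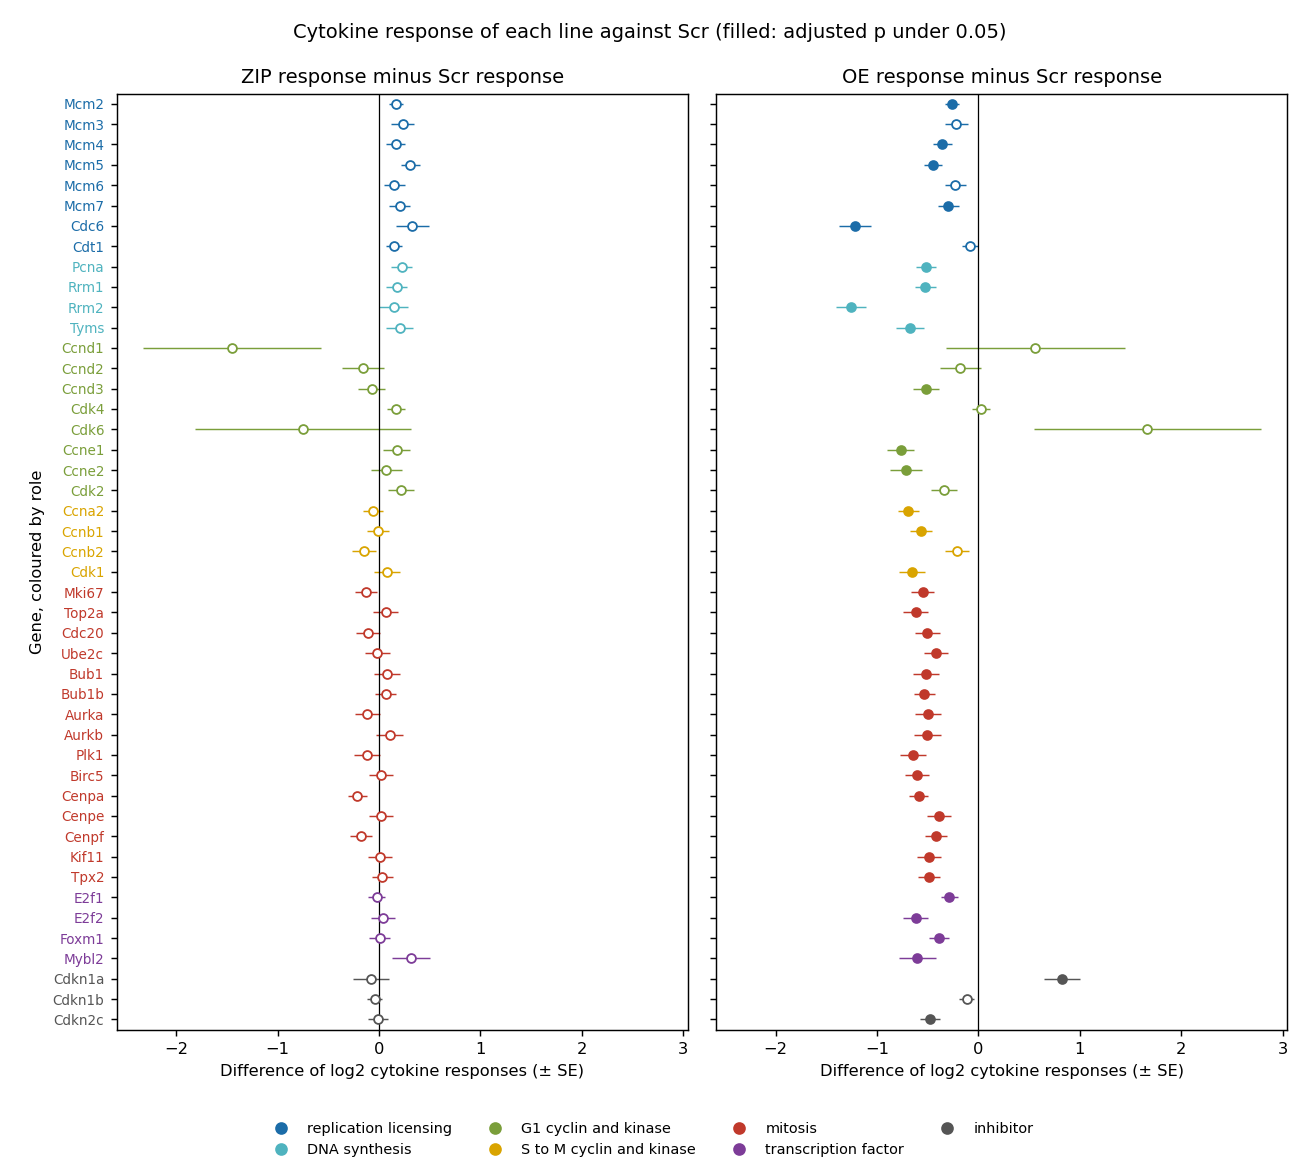
Difference between the log2 cytokine response of ZIP (left) or OE (right) and that of Scr for each gene, with its SE as a bar. Filled points have an adjusted p under 0.05. No point is filled for ZIP, and 36 are for OE, of which 35 lie below 0 and Cdkn1a lies above.

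The treated lines were also compared with each other. In ZIP+Cy against Scr+Cy 5 genes were called lower, Mcm4, Mcm5, Ccnd3, Kif11 and E2f2, and 1 higher, Ccnd2 (with Cdk6 as well without the 3 libraries), against 8.67% and 7.1% of all genes. By the adjusted p 19 were lower and 1 higher (15.1% and 12.9% of all genes). In OE+Cy against Scr+Cy 19 were called lower and 1 higher, Cdkn1a (0.66 ± 0.13, adjusted p = 9.54e-05), against 14.8% and 13.7%, and the Cdkn1a call was lost without OE+Cy replicate 1 (0.58). The adjusted p alone gave 36 and 1 (27.4% and 26% of all genes). Ccne2 (-1.29 ± 0.12, adjusted p = 1.34e-09), Ccne1 (-1.22 ± 0.095, adjusted p = 1.14e-10) and E2f2 (-1.17 ± 0.087, adjusted p = 5.07e-11) were furthest down. The call of Birc5 (-0.59) was lost with DESeq2 (-0.57), with its size factors, a filter on low counts or the groups compared alone. It was also lost without any 1 of Scr+Cy replicates 3 and 4 or OE+Cy replicates 2 and 3. The call of Aurka was lost without Scr+Cy replicate 3 or OE+Cy replicate 3, and that of Aurkb without OE+Cy replicate 3. Rrm2, highest in untreated OE cells, was below Scr+Cy here at -0.38 ± 0.10, adjusted p = 0.00361.

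Other genes of the same pathways were read from lists. Of 46 further mitosis genes, 24 were called lower and 1 higher in OE+Cy against OE, and 45 were lower by the adjusted p. Over all genes these shares were 8.02%, 13% and 21.5%, and the median of the list was -0.59. Cdc25c, the phosphatase that activates Cdk1, fell by 0.88 and Cdca2 by 0.84. The higher gene was Pttg1, which encodes securin (0.94 ± 0.15, adjusted p = 1.76e-05). The same list had 0 called genes in Scr and 0 in ZIP cells, by edgeR, where 4 and 10 were lower by the adjusted p (7.33% and 12.8% of all genes), with medians of -0.12 and -0.09.

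Of 45 further replication genes, 3 were called lower in OE+Cy against OE and 31 were lower by the adjusted p (median -0.26), against 8.02% and 21.5% of all genes, so that the called share was near the background. Tk1, the thymidine kinase of nucleotide salvage, fell by 0.81 on the log2 scale (adjusted p = 2.69e-08). In ZIP+Cy against ZIP 2 were called higher and 26 were higher by the adjusted p (median 0.28), against 7.28% and 13.6% of all genes. Without cytokines Orc6, a subunit of the origin recognition complex, was lower than in Scr in ZIP (-1.41 ± 0.1, adjusted p = 8.57e-11) and OE cells (-0.93 ± 0.098, adjusted p = 2.13e-08). Cdc45, which joins the MCM ring into the active helicase, was higher in OE cells (0.68 ± 0.099, adjusted p = 3.31e-06), as was Orc1 (0.64 ± 0.10, adjusted p = 1.23e-05), and Gins3 was lower in ZIP cells (-0.64 ± 0.083, adjusted p = 1.61e-06).

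Among 4 other inhibitors, Cdkn2a was at 84.2, 71.1, 71.7 and 57.3 CPM in Scr and 37.8, 39.6, 35.4 and 38.5 CPM in OE, a fall of 0.91 on the log2 scale (adjusted p = 4.45e-09). Cdkn2d fell with cytokines in OE cells by 0.85 (adjusted p = 2.95e-09). Cdkn1c was low throughout, at 2.54 CPM in Scr, 0.939 in ZIP and 0.314 in OE. Of 13 genes of the RB family and other E2F and DP factors, E2f8 was called lower in OE+Cy against OE (-0.72 ± 0.099, adjusted p = 1.84e-06) and Tfdp2 higher in ZIP against Scr (0.82 ± 0.078, adjusted p = 1.29e-08).

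Since Cdkn1a is a p53 target, Trp53 and 19 of its textbook targets were read as a list. In OE+Cy against OE 10 of the 20 were called higher and 0 lower by edgeR, against 13% and 8.02% of all genes, with a median of 0.62. With cytokines Scr cells had 6 and ZIP cells 7 called higher (7.88% and 7.28% of all genes), with medians of 0.36 and 0.26. These counts took in genes at very low levels. Pmaip1, for example, was at 0 CPM in ZIP and 0.125 in ZIP+Cy (edgeR, adjusted p = 0.0698), and Phlda3 was at 0.685 CPM in Scr and 0.464 in ZIP. Trp53 itself rose with cytokines by similar amounts in Scr (0.90), ZIP (1.05) and OE cells (0.96), and its OE response differed from that of Scr by 0.06 ± 0.12, adjusted p = 0.771. Of the 20, 6 responded higher in OE than in Scr by the adjusted p (9.64% of all genes), among them Sesn2 (1.03 ± 0.19, adjusted p = 0.000394) and Trp53inp1 (1.07 ± 0.25, adjusted p = 0.00344). Without cytokines OE cells had 5 called higher and 2 lower than Scr (11.3% and 14.4% of all genes). Trp53 and Sesn2 were named after their values had been seen. Phlda3 rose by 3.10 in OE, 1.95 in Scr and 1.55 in ZIP cells on the log2 scale, and the OE response was not shown to differ from that of Scr (1.14 ± 0.51, adjusted p = 0.127).

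The promoters of licensing, DNA synthesis and mitosis genes were read for 3 kinds of short motif, as 300 bases from 250 before to 50 after the start site (RefSeq, GRCm38.p6). The motifs were an E2F word (TTTCCCGC, TTTCGCGC, TTTGCCGC or TTTGGCGC), the CHR word TTTGAA that MuvB complexes bind, and the CCAAT box, each on both strands. Promoters were found for 38 of the 46 genes, and not for Mcm4, Ccnd1, Ccnd2, Ccne2, Ccna2, Aurkb, Tpx2 and Foxm1. An E2F word was in 6 of 11 licensing and DNA synthesis promoters (54.5%) and in 1 of 16 promoters of mitosis genes and S to M cyclins and kinases (6.25%), against 2.6% of 27025 genes. A CHR word was in 1 of the 11 (9.09%) and 12 of the 16 (75.0%), against 20.2%. A CCAAT box was in 8 of the 11 (72.7%) and 15 of the 16 (93.8%), against 41.1%. All 12 promoters with a CHR word among the 16 also held a CCAAT box, as did the 1 among the 11, against 7.97% of all genes with both. The counts are descriptions of letters, with no test.

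The promoters of 4 genes are shown, 2 of licensing or DNA synthesis genes and 2 of the mitosis genes with the largest fall in OE cells, with every E2F, CHR and CCAAT word in capitals.
Mcm5, chr8:75109259-75109558, + strand: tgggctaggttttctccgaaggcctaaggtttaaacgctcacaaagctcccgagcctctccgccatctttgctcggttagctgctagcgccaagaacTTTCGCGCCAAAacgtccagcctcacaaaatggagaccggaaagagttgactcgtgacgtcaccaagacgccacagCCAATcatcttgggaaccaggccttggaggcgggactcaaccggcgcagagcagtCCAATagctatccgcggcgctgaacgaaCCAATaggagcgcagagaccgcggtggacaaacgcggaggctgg
Rrm2, chr12:24708004-24708303, + strand: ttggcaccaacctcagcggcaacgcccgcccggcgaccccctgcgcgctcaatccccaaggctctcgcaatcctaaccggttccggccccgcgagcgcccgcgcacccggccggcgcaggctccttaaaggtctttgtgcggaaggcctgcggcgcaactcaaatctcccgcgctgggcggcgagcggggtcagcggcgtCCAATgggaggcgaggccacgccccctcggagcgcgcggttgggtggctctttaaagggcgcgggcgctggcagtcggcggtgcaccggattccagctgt
Mki67, chr7:135716330-135716629, - strand: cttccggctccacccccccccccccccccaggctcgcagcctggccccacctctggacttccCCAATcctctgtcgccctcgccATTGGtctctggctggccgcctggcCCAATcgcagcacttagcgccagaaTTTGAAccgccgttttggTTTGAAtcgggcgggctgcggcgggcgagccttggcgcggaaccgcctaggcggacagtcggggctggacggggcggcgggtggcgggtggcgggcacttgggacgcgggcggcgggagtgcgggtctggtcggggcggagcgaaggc
Birc5, chr11:117848987-117849286, + strand: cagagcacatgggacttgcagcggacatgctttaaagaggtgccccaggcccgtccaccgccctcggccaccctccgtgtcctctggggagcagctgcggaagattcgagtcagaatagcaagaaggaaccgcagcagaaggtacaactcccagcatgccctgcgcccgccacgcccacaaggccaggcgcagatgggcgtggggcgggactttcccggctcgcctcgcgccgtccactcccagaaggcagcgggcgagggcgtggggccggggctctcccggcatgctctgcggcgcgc
The Mcm5 promoter held 2 overlapping E2F words on opposite strands, the first starting at base -153 from the start site, and 3 CCAAT boxes. Rrm2, which fell in OE cells where Mcm5 moved by -0.27, had 1 CCAAT box at -50 and no E2F word in this window. Mki67 held 2 CHR words, at -116 and -98, downstream of 3 CCAAT boxes, and Birc5 held none of the words.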

How the data were processed

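Purified mRNA of 24 MIN6 libraries (6 groups of 4) was sequenced. The authors checked the reads with FastQC, aligned them to the mouse genome (mm10) with STAR, assigned them to RefSeq transcripts in Partek Flow, removed genes with under 10 reads in total and deposited estimated counts per gene. The submitters' processing notes give STAR 2.7.8a and Partek 11.0.24.0204, while the paper's methods name other versions. Of the estimated counts 30.3% were not whole, and all were rounded before testing. The strand setting of the counting is not given in the sources used here. A second deposited table of normalized values was not used.

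Libraries held 26657792 to 37168232 assigned reads. One model of the 6 group means was fitted to all 17696 genes with edgeR 4.0.16 (TMM, quasi-likelihood test, R 4.3.3), with Benjamini-Hochberg adjustment over all genes. Interactions were called at an adjusted p under 0.05, and other comparisons as the report states. SEs were taken from the log2 fold change and its F value. The fit was tested on simulated data. DESeq2 1.42.0, its size factors, a filter on low counts, the groups compared alone, a replicate block, other thresholds and leaving out each library were tried as alternatives, and leaving out 3 libraries was chosen after seeing the data. Medians near members used genes within 5 Mb.

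Replicate numbers are shared by all groups. Deviations of same-numbered libraries from their group means correlated above 0.1 for every pair in ZIP against Scr, Scr+Cy against Scr, ZIP+Cy against ZIP, OE+Cy against OE and ZIP+Cy against Scr+Cy (r from 0.141 to 0.634), but not in OE against Scr (lowest -0.129) or OE+Cy against Scr+Cy (lowest 0.001). The labels carry a P-number that same-numbered libraries of all 6 groups share, and its meaning is not given. That these libraries vary together was read from the data, over 12670 genes.

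The 46 genes, their roles and the other lists were chosen with earlier results of these data known. Values in every library are given for genes fixed by role, for the 2 called genes with the largest rise and the 2 with the largest fall in each comparison of 2 groups, and for the 2 with the smallest adjusted p in each interaction. From the other lists the same ends of the ranking were used where the mean was at least 1 CPM, and a gene that this rule names is not reported here.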

Additional observations from a re-analysis of the deposited data

Results flagged for a closer look

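The response to cytokines differed between OE and Scr cells by a test of the difference itself (edgeR, adjusted p under 0.05) for 36 of the 46 genes, of which 21 were described library by library. As the log2 response of OE minus that of Scr, the replication genes were Mcm2 (-0.26), Mcm4 (-0.36), Mcm5 (-0.45), Cdc6 (-1.22), Pcna (-0.52) and Rrm2 (-1.26). The cyclins and Cdk1 were Ccnd3 (-0.51), Ccne1 (-0.77), Ccne2 (-0.71), Ccnb1 (-0.56) and Cdk1 (-0.65). The mitosis genes were Mki67 (-0.55), Top2a (-0.62), Cdc20 (-0.50), Aurkb (-0.50) and Plk1 (-0.64). The transcription factors were E2f1 (-0.29), E2f2 (-0.62) and Foxm1 (-0.39). The inhibitors were Cdkn1a (0.83) and Cdkn2c (-0.48), and Cdkn1a was the gene above 0.

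In 10 of 156 groups of 4 libraries checked, 1 library stood apart from the others by Dixon's test, which chance does in about 1 in 20 groups. Of these, 6 belonged to Ccnd1 and Cdk6, the genes with few reads. Ccnd1 was at 3.366 CPM in ZIP replicate 1, at 4.834 CPM in Scr+Cy replicate 1 and at 1.082 CPM in ZIP+Cy replicate 1. Cdk6 was at 2.378 CPM in ZIP replicate 1, at 2.063 CPM in Scr+Cy replicate 1 and at 1.763 CPM in ZIP+Cy replicate 3. Ccnd2 was at 3363 CPM in ZIP replicate 1, against 2781 to 2833 CPM in the other ZIP libraries. Mcm2 was at 351.7 CPM in OE replicate 1, Mcm5 at 257.3 CPM in ZIP+Cy replicate 2 and E2f2 at 49.2 CPM in ZIP+Cy replicate 1.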

How the results depend on the processing

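No called difference of a named gene changed direction under any alternative run, and no role's median did with DESeq2's size factors. With the adjusted p and no fold limit the number of the 46 genes called was 25 in ZIP against Scr, 17 in OE against Scr, 9 in Scr+Cy against Scr, 21 in ZIP+Cy against ZIP, 38 in OE+Cy against OE, 20 in ZIP+Cy against Scr+Cy and 37 in OE+Cy against Scr+Cy. With the fold limit and unadjusted p the OE interaction kept 14 of 36. Leaving out the 3 libraries with raised fibroblast and Schwann cell markers gave 4 genes in place of 2 in OE against Scr, with Ccne2 and E2f2 added. Leaving out single libraries gave 5 to 7 genes in ZIP against Scr, 2 to 4 in OE against Scr (4 without Scr replicate 1), 0 to 1 in Scr+Cy against Scr (Cdk6, without Scr replicate 1), 0 to 2 in ZIP+Cy against ZIP (0 without ZIP+Cy replicate 3 or 4, 2 without ZIP replicate 4), 23 to 28 in OE+Cy against OE, 5 to 7 in ZIP+Cy against Scr+Cy, 17 to 21 in OE+Cy against Scr+Cy, 0 in the ZIP interaction and 33 to 38 in the OE interaction. Named genes lost the call in 19 refits without a single library and kept it in 645. DESeq2 and its size factors lost Ccnd3 in ZIP+Cy against Scr+Cy and Birc5 in OE+Cy against Scr+Cy. Birc5 was lost there also with the filter on low counts and with the groups compared alone. DESeq2 and the groups compared alone each added Cdk2 in the OE interaction. With the replicate block 6, 2, 0, 1, 26, 6 and 21 genes were called in the 7 comparisons of 2 groups, in the order above, 0 in the ZIP and 38 in the OE interaction, and the block added Cdk6 in OE+Cy against Scr+Cy, Mcm6 and Cdk2 in the OE interaction, and lost no call. By the adjusted p alone the block also lost no gene and gave 29, 22, 11, 24, 41, 25 and 39 genes. The cause of these changes was not tested. Cdk6, on 2 to 67 reads a library, and Ccnd1 are limited by depth.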
